A study of Homo sapiens with 10 samples.

Results

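The intergenic TRPS1 peaks that lay 5 to 50 kb from their nearest gene are described here together with the expression of these genes. TRPS1 binding had been mapped by ChIP-seq in T47D cells, an established human breast cancer line of the luminal type, and the resulting peak list holds 1844 peaks. Peaks were taken by name from that list and from the study's annotation of it when their smallest distance to the transcription start site of a nearest gene was over 5 kb and at most 50 kb and when they lay outside that gene. This gave 455 peaks, or 24.7% of the list (95% Wilson interval 22.8 to 26.7%). A further 514 peaks lay within 5 kb of a start site, 342 were distal but inside a gene, 532 were intergenic and beyond 50 kb, and 1 had no nearest gene. Expression was measured by RNA-seq in 2 libraries each of T47D cells given control siRNA, TRPS1 siRNA or CHD4 siRNA, with RNA taken 72 h after transfection. The control siRNA libraries serve in both knockdown comparisons. For CHD4 the labels and the RNA interference methods name an siRNA and the RNA-seq methods an shRNA, and the label is followed here.

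TRPS1 is an atypical GATA factor with a single GATA-type zinc finger and Ikaros-type fingers near its end, and it acts mainly as a repressor. CHD4 is the ATPase of NuRD, a complex that joins nucleosome remodeling to histone deacetylation and that TRPS1 can recruit. Peaks away from promoters are often enhancers, which act over distance and do not always act on the nearest gene, so a nearest gene is a label of position and not a known target. In luminal breast cells the transcription factors FOXA1, GATA3 and ESR1 bind many such distal elements.

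The reagents that set the groups are shown because the expression results rest on them. The study lists a pair of siRNAs for each target and does not state which entered the RNA-seq libraries. Each is given 5′ to 3′ as its listed strand, without overhangs.
Control siRNA: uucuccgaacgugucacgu
TRPS1 siRNA#1: gucccuugaauguaguaaa
TRPS1 siRNA#2: gcacacagcugcuacaaau
CHD4 siRNA#1: cgggaguucaguaccaaua
CHD4 siRNA#2: gggcugcuuacuugaacau
The study also lists ChIP-qPCR primers for *AKAP6*, a nearest gene described below, although its text describes no ChIP-qPCR result for this gene. These primers are shown as designed sequences that carry the name of a nearest gene of these peaks. Their position on the genome was not analysed here, so whether they lie in a peak is not known.
AKAP6-Qchip-F: gccacaggaagtttcaagat
AKAP6-Qchip-R: gggagtgccactgaaagaaa

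The 455 peaks were mostly upstream of their nearest gene, a share that the rule itself raises. It leaves out peaks inside the gene, all of which lie downstream of the start, and none upstream. Of the 455 peaks, 325 lay upstream (71.4%, 95% Wilson interval 67.1 to 75.4%), 129 downstream (28.4%), and 1, at the pseudogene *OACYLP*, ran over the gene's end. Among peaks on either side of a gene the upstream share was 71.6%, against 56.6% (52.3 to 60.7%) of intergenic peaks beyond 50 kb and 93.9% of the 214 peaks that were outside a gene but within 5 kb. These shares follow in part from the split by distance and position and are no finding. Their intervals cover counting error in a single peak list, which holds no replicate. The median width of the 455 peaks was 276 bp with a range from 207 to 1555 bp, and the median was 285 bp for distal peaks inside genes and 294.5 bp for intergenic peaks beyond 50 kb. Measured from the peak centre to the start of the gene in RefSeq (GRCh38.p14), the median distance was 21016.5 bp over the 454 peaks with a matched gene, with quartiles of 11528 and 32574.25 bp. Of these, 438 were again 5 to 50 kb away, 5 were nearer and 11 farther, since RefSeq starts some genes elsewhere than the annotation of the study. The histogram of signed distances shows, for the peaks that the rule kept, the larger upstream side and the fall in numbers with distance on both sides.

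**Figure D1:**
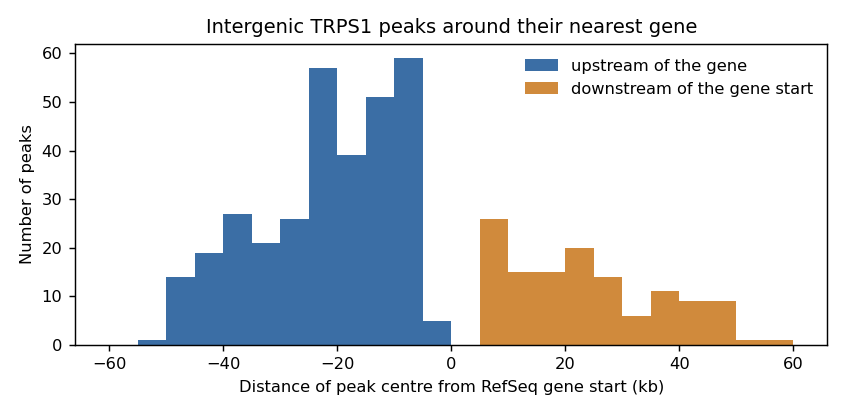
Number of intergenic TRPS1 peaks in bins of 5 kb by the distance in kb of the peak centre from the RefSeq start of the nearest gene (negative, upstream). The bin from 5 to 10 kb upstream holds 59 peaks and the bin from 45 to 50 kb upstream 14, and 8 peaks whose RefSeq start lies beyond 60 kb are not drawn.

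The peaks had 397 nearest genes, of which 351 had 1 peak, 32 had 2, 12 had 3, 1 had 4 and 1 had 5. The median gap between neighbouring peaks of the same gene was 5487 bp (range 307 to 74158 bp, 63 gaps). The rule itself limits these gaps, as it keeps only peaks at most 50 kb from the start site, so they are no finding. *XBP1*, a transcription factor of the unfolded protein response and of luminal, oestrogen receptor positive cells, carried the 5 peaks. All 5 were upstream on chromosome 22, at chr22:28808672-28809041, chr22:28813736-28813943, chr22:28818667-28818984, chr22:28819396-28819767 and chr22:28823065-28823504 (hg38, as all peak positions here). Their centres were 8287, 13270, 18256, 19012 and 22715 bp from the RefSeq start.

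The 12 genes with 3 peaks were *BCL9L*, *DSCAM-AS1*, *ESR1*, *FOXA1*, *LOC285593*, *MED13L*, *MGC34796*, *MIR1208*, *MIR548AM*, *OACYLP*, *PIP* and *PPP1R2*. Most of these are not luminal regulators. Luminal and epithelial regulators, some with only 2 peaks, are described next as examples. *ESR1*, which encodes oestrogen receptor alpha, had 3 upstream peaks at chr6:151616163-151616385, chr6:151632571-151632912 and chr6:151633413-151634436, the last of which was 1024 bp wide and the second widest of the 455. *FOXA1*, the pioneer factor of luminal chromatin, had peaks on both sides, at chr14:37546680-37547517 and chr14:37566945-37567490 downstream and at chr14:37641224-37641527 upstream. *TRPS1* itself had 2 upstream peaks at chr8:115691317-115692245 and chr8:115693544-115694247, centred 22806 and 24920 bp from its start. *GRHL2*, an epithelial transcription factor, and *EHF*, an epithelial ETS factor, had 2 each, upstream of the former and downstream of the latter. The widest peak, of 1555 bp, lay at chr2:189541091-189542645 downstream of the start of *SLC40A1*, the iron exporter ferroportin.

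Genes of the epithelial and secretory phenotype were nearest to further groups. *KRT8*, a keratin of simple epithelia, had 2 wide peaks of 820 and 718 bp at chr12:52969998-52970817 and chr12:52971555-52972272. *PIP*, a secreted protein of apocrine cells, had 3 peaks, at chr7:143120727-143121439 and chr7:143126149-143126991 upstream and chr7:143147002-143147242 downstream. The matrix Gla protein gene *MGP* and *CCL28*, a chemokine of mucosal epithelium, had 2 upstream peaks each. *AKAP6*, which anchors protein kinase A, had 2 upstream peaks at chr14:32307839-32308139 and chr14:32311860-32312096. The map of peaks at these genes shows clusters on a single side at *XBP1*, *KRT8*, *ESR1*, *TRPS1*, *GRHL2*, *CCL28*, *AKAP6* and *MGP*, and peaks on both sides at *FOXA1* and *PIP*.

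**Figure D2:**
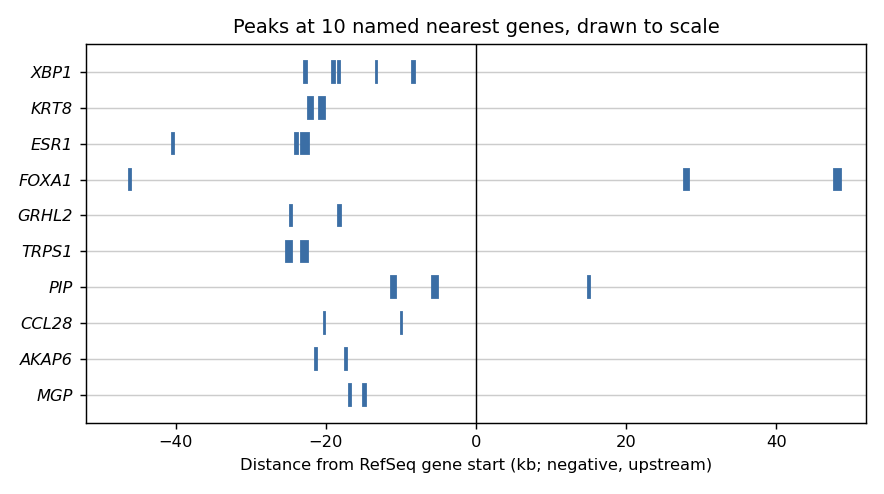
Positions and widths of the intergenic TRPS1 peaks at 10 named nearest genes, with the distance from the RefSeq gene start in kb on the horizontal axis (negative, upstream) and a row per gene. *XBP1* has 5 peaks between 8287 and 22715 bp upstream, and *FOXA1* has 1 upstream and 2 downstream.

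By RefSeq class, 288 of the 397 nearest genes were protein-coding, 59 were lncRNAs, 36 miRNAs, 10 transcribed pseudogenes, 2 pseudogenes and 1 a snoRNA, and 1 had no match. Some genes carried TRPS1 peaks of other classes too: 34 had a peak within 5 kb, 30 an intergenic peak beyond 50 kb and 12 a distal peak inside the gene, whereas 331 had only peaks of the 5 to 50 kb class. The count tables list 325 of the 397 genes, which include 271 of the protein-coding genes, 45 of the lncRNAs and none of the miRNAs. Expression of the miRNA genes nearest to 46 peaks was therefore not measured. Among these miRNA genes, *MIR1208* had 3 peaks, and its sequence is not shown.

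Mature sequences from RefSeq (GRCh38.p14) are shown for 5 other miRNAs with 2 or more of these peaks and for 2 well-known miRNAs with 1 peak each. The capitals mark the seed, bases 2 to 8, through which a miRNA pairs with its targets.
hsa-miR-1261: aUGGAUAAggcuuuggcuu
hsa-miR-548am-3p: cAAAAACUgcaguuacuuuugu
hsa-miR-8086: uGCUAGUCuggacugauauggu
hsa-miR-4491: aAUGUGGAcuggugugaccaaa
hsa-miR-135a-2-3p: aUGUAGGGauggaagccaugaa
hsa-miR-21-5p: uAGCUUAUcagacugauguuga
hsa-let-7c-5p: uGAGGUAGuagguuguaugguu
*MIR1261* had 4 peaks and *MIR548AM* 3, and *MIR8086*, *MIR4491* and *MIR135A2* had 2 each. *MIR21*, an oncogenic miRNA abundant in breast cancer, had 1 peak at chr17:59847637-59847978, centred 6541 bp downstream of its start. The tumour suppressive *MIRLET7C* had 1 at chr21:16563850-16564056, centred 24125 bp downstream. Of the 36 miRNA genes 29 were found in the RefSeq sequence table, and no seed was shared among the 35 mature sequences examined.

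The RNA-seq libraries held 10333138 to 14668358 counts each, so that 3 counts, the limit of detection used here, stood for 0.198 to 0.284 CPM. Levels are given as CPM, the counts of a gene scaled to a common library size, after TMM scaling over the 6 libraries. Replicates correlated at 0.976 (TRPS1 siRNA) and 0.967 (CHD4 siRNA) but at 0.881 for control siRNA on the log CPM scale, so the control libraries differed most from each other. The luminal markers *KRT8*, *KRT18*, *KRT19*, *ESR1*, *GATA3*, *FOXA1* and *EPCAM* were present in every library. The basal keratins *KRT5* and *KRT14* and the markers *COL3A1*, *PTPRC*, *CD3E* and *PECAM1* of other cells were at or near 0, whereas *COL1A1*, taken as a fibroblast marker, was at 59.0 to 153 CPM. The labels do not say that replicates were separate cultures, and p-values then measure the spread between these libraries, which may be technical. In bulk RNA, fewer cells of a kind and less RNA per cell cannot be told apart.

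Both knockdowns were first checked on their targets. *TRPS1* had 1418 and 2323 CPM in the control libraries, 1149 and 727 in the TRPS1 siRNA libraries, and 2462 and 1583 in the CHD4 siRNA libraries. It was below both controls in both TRPS1 siRNA libraries, with a log2 fold change of -0.97 (SE 0.39, unadjusted p = 0.0459 in edgeR's quasi-likelihood test). As *TRPS1* is also a nearest gene of 2 of these peaks, this change is that of the target. *CHD4*, which is not among the nearest genes, had 295 and 292 CPM in the control libraries and 96.2 and 54.2 in the CHD4 siRNA libraries, a log2 fold change of -1.96 (SE 0.42).

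Upon silencing *TRPS1*, genes with a higher and genes with a lower level were both more common among the nearest genes than among all genes in the fit of all 4 libraries. A gene was called changed when it differed by more than 2-fold at an unadjusted p under 0.05. Of 325 nearest genes in the count tables, 315 were in the table for TRPS1 siRNA and 232 passed the filter of over 2 CPM in at least 2 libraries. Of the 232, 21 (9.05%, 95% Wilson interval 5.997 to 13.4%) were called higher, against 2.7% (349) of all 12921 genes tested, and 18 (7.76%, 4.96 to 11.9%) were called lower, against 3.17% (410). No gene passed an adjusted p under 0.05 (Benjamini-Hochberg, edgeR's quasi-likelihood test), the smallest adjusted p among nearest genes being 0.659. At that threshold DESeq2 gave 6 nearest genes and 39 of all genes, and edgeR's likelihood ratio test 6 and 34. At an unadjusted p under 0.05 alone there were 45 (19.4%) of the nearest genes and 902 (6.98%) of all genes. The median log2 fold change was -0.00 for the nearest genes and -0.02 for all genes, so the nearest genes as a whole were not shifted to either side. A gene counted here had to pass the filter. *CCT6B*, *FLJ31104*, *TGFB2* and *TMPRSS4*, called higher, did so only through the TRPS1 siRNA libraries. *CCDC177* and *MFSD2A*, called lower, did so only through the control libraries. For such genes a high level in 1 group was a condition of being tested, so these calls carry little weight. Tested nearest genes had a median of 51.3 CPM in the control libraries against 32.5 for all tested genes. Whether their higher level has a part in these shares was not tested.

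The counts rested on the choice of libraries. Without control replicate 1, TRPS1 siRNA gave 19 nearest genes called higher (8.33%, against 5.71% of all genes) and 14 lower (6.14%, against 2.40%). Without control replicate 2 it gave 55 higher (24.0%, against 19.2% of all genes) and 28 lower (12.2%, against 14.4%), so that the share called lower was then below that of all genes. Without TRPS1 siRNA replicate 1 it gave 3 and 4 (1.34 and 1.79%, against 0.256 and 0.336%), and without TRPS1 siRNA replicate 2 it gave 2 and 3 (0.889 and 1.33%, against 0.623 and 0.814%). *BCHE* and *CCL28* among the higher and *KPNA2* and *KRT8* among the lower kept their call in all 4 of these fits. Scaled by library size without TMM factors, the log2 fold changes of all genes shifted by 0.13 at the median, and the share of calls that were higher moved from 46.0 to 65.9% over all genes and from 53.8 to 62.9% over nearest genes.

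Upon silencing *CHD4*, the nearest genes called lower outnumbered those called higher. Of 234 nearest genes tested, 8 (3.42%, 95% Wilson interval 1.74 to 6.60%) were called higher against 2.6% (336) of all 12918 genes tested, and 18 (7.69%, 4.92 to 11.8%) were called lower against 2.85% (368). The first share is near that of all genes. *ADGRE1*, *CCT6B*, *TGFB2*, *TMPRSS4* and *TNFSF9* among the higher passed the filter only through the CHD4 siRNA libraries. *MFSD2A* among the lower passed it only through the control libraries, and these calls carry little weight too. By edgeR's quasi-likelihood test again no gene passed an adjusted p under 0.05, with 28 nearest genes (11.97%) and 769 genes in all (5.95%) at an unadjusted p under 0.05. At the adjusted threshold DESeq2 gave 5 nearest genes and 50 of all genes, and the likelihood ratio test 6 and 58. The medians were -0.03 for nearest genes and -0.02 for all genes. Without control replicate 1 the counts were 13 higher (5.63%, against 5.68% of all genes) and 14 lower (6.06%, against 2.06%). Without control replicate 2 they were 43 and 32, and these shares of 18.7 and 13.9% were close to those of all genes, 17.6 and 13.4%. Without CHD4 siRNA replicate 1 they were 1 and 10 (0.446 and 4.46%, against 0.319 and 0.406%), and without CHD4 siRNA replicate 2 they were 3 and 6 (1.33 and 2.67%, against 0.825 and 0.978%). *ZNF252P* among the higher and *FAM65C*, *KPNA2*, *KRT8* and *LITAF* among the lower kept their call in all 4 fits. With library sizes alone 11 nearest genes (4.70%, against 3.55% of all genes) were called higher and 12 (5.13%, against 1.72%) lower. The share of calls that were higher then moved from 30.8 to 47.8% over nearest genes, and from 47.7 to 67.4% over all genes.

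The shares by class of peak are set side by side in the plot of called nearest genes. Upon silencing *TRPS1*, 3.04% of the genes nearest to peaks within 5 kb were called higher and 4.21% lower, 6.41 and 2.56% of those with distal peaks inside the gene, and 8.24 and 4.95% of those with intergenic peaks beyond 50 kb. The intervals of the classes overlap for most of these shares, genes with peaks of several classes count in each, and differences between the classes were not tested. Within the 5 to 50 kb class, 18 of 175 tested genes with an upstream peak (10.3%) were called higher upon silencing *TRPS1* and 12 (6.86%) lower, against 3 (4.84%) and 6 (9.68%) of 62 with a downstream peak. By distance, 4 of 41 genes (9.76%) were called higher with a peak at 5 to 10 kb, 8 of 66 (12.1%) at 10 to 20 kb, 6 of 66 (9.09%) at 20 to 30 kb, 5 of 47 (10.6%) at 30 to 40 kb and 1 of 30 (3.33%) at 40 to 50 kb. The intervals of these 5 shares overlap.

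**Figure D3:**
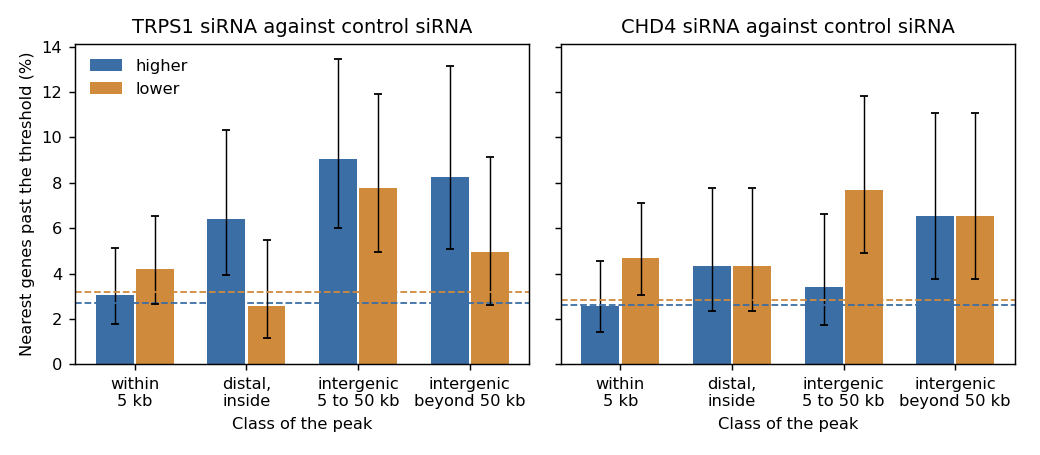
Percent of tested nearest genes called higher or lower in each knockdown by class of peak, with 95% Wilson intervals as error bars and dashed lines at the share of all tested genes in the same colour. In TRPS1 siRNA the 5 to 50 kb class stands at 9.05% higher and 7.76% lower, above the lines at 2.7 and 3.17%.

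*XBP1*, the gene with most of these peaks, was lower in both knockdowns. It was at 1359 and 1401 CPM in the control libraries, 729 and 608 CPM in the TRPS1 siRNA libraries, and 879 and 462 CPM in the CHD4 siRNA libraries. Each knockdown library was below both controls, and the controls were close together. The log2 fold change was -1.03 (SE 0.31) for TRPS1 siRNA and -1.03 (SE 0.41) for CHD4 siRNA, and scaled by library size alone the first was -0.91 and neither was called.

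The other luminal factors with clusters of peaks did not pass the threshold. *ESR1* was at 263 and 406 CPM in the control libraries, 195 and 237 CPM with TRPS1 siRNA, and 248 and 187 CPM with CHD4 siRNA. All 4 knockdown libraries were below both controls, but the controls differed by more than the gap, and the log2 fold change was -0.61 in each comparison (adjusted p = 0.666 and adjusted p = 0.798 by edgeR). *FOXA1* was at 256 and 299 CPM in the control libraries, 268 and 191 with TRPS1 siRNA and 388 and 250 with CHD4 siRNA, so its groups overlapped. *GRHL2* was at 493 and 512 CPM in the control libraries and 380 and 346 CPM with TRPS1 siRNA, below both controls, but at 503 and 326 CPM with CHD4 siRNA, which overlaps them.

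Of the ETS factors, *ELK4* and *EHF* stood above both controls in the TRPS1 siRNA libraries and *ELF3* did not. The peak of *ELK4*, a partner of serum response factor, had *SLC45A3* as a nearest gene too. Its centre was 79266 bp from the RefSeq start of *ELK4*, beyond the distance range used here, and 30768 bp from that of *SLC45A3*. *ELK4* was at 51.6 and 128 CPM in the control libraries, 223 and 261 CPM with TRPS1 siRNA and 163 and 175 CPM with CHD4 siRNA. All knockdown libraries were above both controls, and the call was made for TRPS1 siRNA (log2 fold change 1.45, SE 0.47) but not without control replicate 1 (0.96) or without TRPS1 siRNA replicate 2 (1.36). *EHF* was at 347 and 582 CPM in the control libraries, 692 and 657 with TRPS1 siRNA, and 500 and 340 with CHD4 siRNA, and it passed the threshold in neither. *ELF3* was at 76.1 and 55.9 CPM in the control libraries, 92.8 and 70.1 with TRPS1 siRNA and 143 and 74.2 with CHD4 siRNA, with overlapping groups and no call. Of the 12 luminal transcription factors and other regulators listed among the nearest genes, 10 were tested for TRPS1 siRNA. *ELK4* was called higher and *XBP1* lower, with a median of -0.19. This median includes *TRPS1*, the target of the siRNA. For CHD4 siRNA 11 were tested, with *XBP1* called lower and a median of 0.13. The shares of all genes called higher and lower were 2.7 and 3.17% with TRPS1 siRNA and 2.6 and 2.85% with CHD4 siRNA, and no difference was tested.

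*KRT8* was the most strongly expressed nearest gene called lower. It was at 5098 and 3415 CPM in the control libraries, 1060 and 1242 with TRPS1 siRNA, and 1211 and 1143 with CHD4 siRNA. The 4 knockdown libraries lay close together and well below both controls, with log2 fold changes of -1.88 (SE 0.35) and -1.85 (SE 0.37). *KRT8* has many near-identical pseudogene copies, and its counts depend on how reads shared with them were handled, which is not given in the sources used here. The same holds for *KPNA2* and *HSPB1*, described below, which have pseudogenes too. *KRT18* and *KRT19*, keratins of the same cells that are not nearest genes of these peaks, had log2 fold changes of -0.92 and -1.39 with TRPS1 siRNA and -1.45 and -1.44 with CHD4 siRNA.

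Among secretory genes the directions were mixed. *MGP*, an inhibitor of calcification, was at 997 and 915 CPM in the control libraries, 520 and 516 CPM with TRPS1 siRNA and 572 and 429 CPM with CHD4 siRNA. The knockdown libraries were below both controls, but the log2 fold changes of -0.87 and -0.93 (adjusted p = 0.659 and adjusted p = 0.792 by edgeR) did not reach a 2-fold change. *PIP* was at 118 and 88.7 CPM in the control libraries, 217 and 94.9 CPM with TRPS1 siRNA and 89.1 and 35.0 CPM with CHD4 siRNA, with overlap of the groups in both comparisons. Of the 19 epithelial and secretory genes listed, 12 were tested in each comparison. Upon silencing *TRPS1*, *CCL28* and *TMPRSS4* were called higher and *KRT8* lower, with a median of 0.36, and upon silencing *CHD4*, *TMPRSS4* was called higher and *KRT8* and *PARD6B* lower, with a median of -0.05. Among all genes, 2.7% were called higher and 3.17% lower upon silencing *TRPS1*, and 2.6 and 2.85% upon silencing *CHD4*, and no difference was tested.

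*CCL28* lay on opposite sides of its controls in the knockdowns. It was at 14.4 and 12.9 CPM in the control libraries, 84.3 and 44.1 CPM with TRPS1 siRNA, and 8.63 and 3.84 CPM with CHD4 siRNA. Both TRPS1 siRNA libraries were above and both CHD4 siRNA libraries below both controls. The log2 fold change was 2.25 (SE 0.45) for TRPS1 siRNA, within 1.70 and 2.66 when each library was left out in turn, and -1.13 (SE 0.56, adjusted p = 0.792 by edgeR) for CHD4 siRNA, which is not a call. *TMPRSS4*, a membrane serine protease with a peak at chr11:118057884-118058121, was nearly silent in the control libraries at 0.144 and 0.463 CPM, or 2 and 6 counts. It was at 6.52 and 3.37 CPM with TRPS1 siRNA and 3.38 and 2.24 CPM with CHD4 siRNA, above both controls throughout, and its fitted log2 fold changes of 4.02 and 3.19 depend on the prior count.

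Other nearest genes were called higher upon silencing *TRPS1* from low to moderate control levels. *BCHE*, the gene of butyrylcholinesterase with a peak at chr3:165852843-165853138, was at 6.54 and 28.4 CPM in the control libraries, 101 and 101 CPM with TRPS1 siRNA and 27.3 and 29.0 CPM with CHD4 siRNA. The TRPS1 siRNA libraries were far above all others (log2 fold change 2.56, SE 0.67), whereas the CHD4 siRNA libraries overlapped the controls. The atypical cadherin gene *FAT1* was at 11.9 and 17.1 CPM in the control libraries, 44.0 and 29.97 with TRPS1 siRNA and 17.4 and 11.5 with CHD4 siRNA. *ACSS1*, a mitochondrial acetyl-CoA synthetase, was at 62.6 and 44.2 CPM in the control libraries, 121 and 105 with TRPS1 siRNA and 51.5 and 48.6 with CHD4 siRNA. For both, the TRPS1 siRNA libraries were above the controls and the CHD4 siRNA libraries overlapped them. The ligand gene *TGFB2* had 1 and 9 counts in the control libraries, so its fitted log2 fold changes of 3.45 and 2.59 rest on few counts. The remaining nearest genes called higher were *AGBL2*, *AMN1*, *CT62*, *FLJ31104*, *LINC00173*, *MVB12B*, *SLC25A21-AS1*, *SLC46A3*, *SRGAP1*, *THEM4* and *ZNF613*, beside those described next. For antisense genes such as *SLC25A21-AS1* and *DSCAM-AS1*, the strand setting of the counting is not given in the sources used here.

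*AKAP6*, *CCT6B*, *TGFB2*, *TMPRSS4* and *ZNF252P* were called higher with either siRNA. These 5 were 23.8% of the 21 nearest genes called higher with TRPS1 siRNA and 62.5% of the 8 with CHD4 siRNA. Over all genes, the 116 called higher in both were 33.2% of 349 and 34.5% of 336. *CCT6B*, *TGFB2* and *TMPRSS4* passed the filter only through the knockdown libraries, so a high level there was a condition of their being tested. The comparisons share their control libraries, so the second call is not independent of the first. *AKAP6* was at 13.2 and 19.2 CPM in the control libraries, 35.0 and 36.9 CPM with TRPS1 siRNA and 41.9 and 35.2 CPM with CHD4 siRNA. All 4 knockdown libraries were above both controls, and the log2 fold changes were 1.17 (SE 0.38) and 1.27 (SE 0.41). *ZNF252P*, a pseudogene of a zinc finger gene, was at 15.5 and 39.5 CPM in the control libraries, 77.3 and 82.4 with TRPS1 siRNA and 92.7 and 91.1 with CHD4 siRNA. Its controls differed from each other more than its knockdown libraries did. *COL6A2*, a collagen gene for which the study lists primers, was at 4.31 and 2.16 CPM in the control libraries, 14.4 and 5.09 with TRPS1 siRNA and 12.4 and 3.68 with CHD4 siRNA. It was called in neither (adjusted p = 0.659 and adjusted p = 0.792 by edgeR). *CDYL2*, a chromodomain cofactor, *TNFSF9*, the ligand of a T-cell costimulatory receptor, and *ADGRE1*, an adhesion G protein-coupled receptor, were called higher with CHD4 siRNA and not with TRPS1 siRNA, where *ADGRE1* was not tested.

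Called lower with either siRNA, again against the same control libraries, were *FAM65C*, *HSPB1*, *KCNK5*, *KPNA2*, *KRT8*, *LITAF*, *MAP6D1*, *MFSD2A*, *RHOB*, *TAGLN2* and *XBP1*. These 11 were 61.1% of the 18 nearest genes called lower with each siRNA. Over all genes, the 151 called lower in both were 36.8% of 410 with TRPS1 siRNA and 41.0% of 368 with CHD4 siRNA. The difference was not tested. *KPNA2*, a nuclear import receptor, was at 689 and 736 CPM in the control libraries, 175 and 227 with TRPS1 siRNA and 171 and 236 with CHD4 siRNA, well apart from the controls. The potassium channel gene *KCNK5* was at 67.3 and 63.6 CPM in the control libraries, 28.4 and 31.1 with TRPS1 siRNA and 18.1 and 14.3 with CHD4 siRNA. *LITAF*, a regulator of late endosomes, was at 318 and 258 CPM in the control libraries, 112 and 125 with TRPS1 siRNA and 78.8 and 59.0 with CHD4 siRNA. For *KCNK5* and *LITAF* the CHD4 siRNA libraries were the lowest. Called lower with TRPS1 siRNA and not with CHD4 siRNA were *CCDC177*, *CYBRD1*, *HILPDA*, *SEMA3C*, *SLC16A6*, *ST3GAL1* and *UQCR10*, with log2 fold changes from -2.68 (*CCDC177*) to -1.04 (*CYBRD1*). Called with CHD4 siRNA and not with TRPS1 siRNA were *CHCHD5*, *DSCAM-AS1*, *P2RY2*, *PARD6B*, *PGLYRP2*, *PPP1R2* and *UGCG*, from -1.93 (*CHCHD5*) to -1.07 (*P2RY2*). A call in 1 comparison and not in the other does not show that the knockdowns differ, and the direct fit below tests that.

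Several of the stress genes rested on a high control library. *HSPB1*, a small heat shock protein gene, was at 1076 and 249 CPM in the control libraries, 218 and 177 with TRPS1 siRNA and 140 and 176 with CHD4 siRNA. Without control replicate 1, its log2 fold change was -0.29 for TRPS1 siRNA and -0.60 for CHD4 siRNA, in place of -1.75 and -2.08, and neither was called. *RHOB*, a stress-responsive GTPase gene, was at 363 and 180 CPM in the control libraries, 126 and 106 with TRPS1 siRNA and 111 and 72.7 with CHD4 siRNA, and its log2 fold changes of -1.23 and -1.57 became -0.59 and -0.93 without that library. *CHCHD5*, a mitochondrial protein gene called lower with CHD4 siRNA at -1.93, had 31.6 CPM in control replicate 1 and 5.41 in control replicate 2, and stood at -0.10 without the former. Of 17 tested genes on the list of immediate-early, stress and feedback genes, *HILPDA*, *HSPB1* and *RHOB* were called lower with TRPS1 siRNA (median -0.13), *HSPB1* and *RHOB* with CHD4 siRNA (median -0.15), and none was called higher in either. Of all genes, 2.7 and 2.6% were called higher and 3.17 and 2.85% lower, so 17 genes are too few for none called higher to stand out.

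The levels of 12 of these genes per library are plotted to show how far the groups lie apart and where the control libraries differ.

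**Figure D4:**
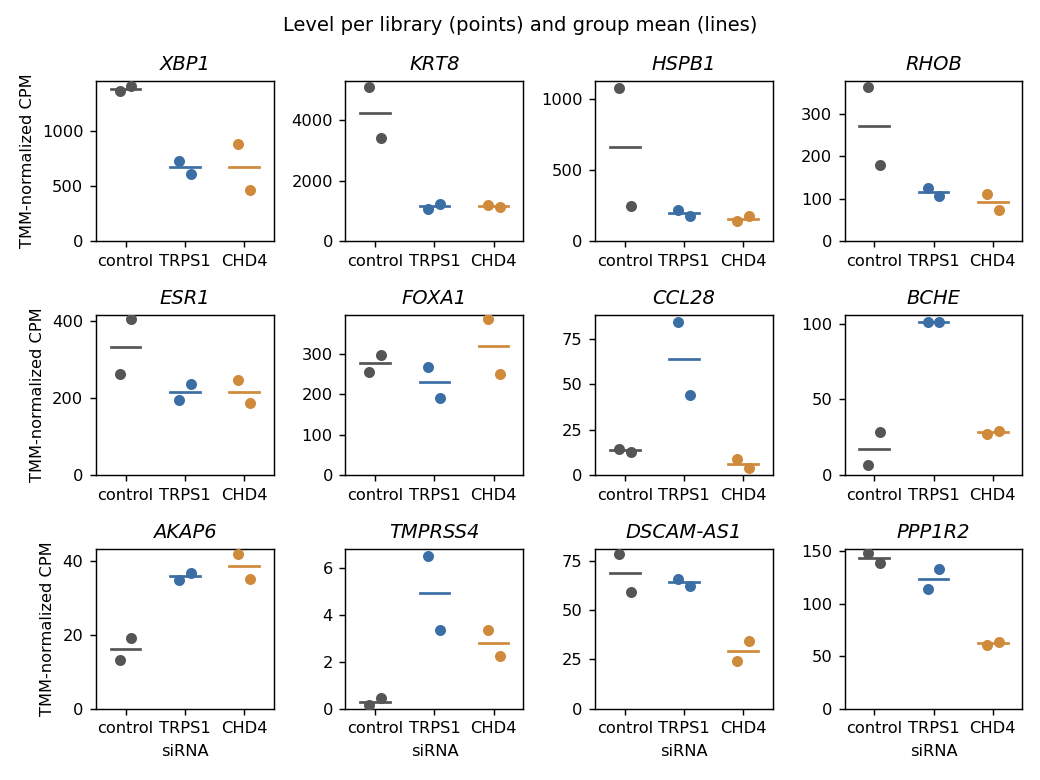
Level of 12 nearest genes in TMM-normalized CPM (vertical axis from 0, own scale per gene) in the control siRNA, TRPS1 siRNA and CHD4 siRNA libraries, with points for libraries and lines for means of 2. *XBP1* and *KRT8* are lower in all 4 knockdown libraries, *BCHE* is at 101 CPM in both TRPS1 siRNA libraries, above all others, and *HSPB1* has 1 control library at 1076 CPM and the other at 249.

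Ligand and receptor genes and cofactors had medians near 0. Of 11 tested ligand and receptor genes, *FAT1* and *TGFB2* were called higher and *SEMA3C*, a semaphorin, lower with TRPS1 siRNA, with a median of 0.03. With CHD4 siRNA, *TGFB2* and *TNFSF9* were called higher and *P2RY2*, a nucleotide receptor, lower, with a median of 0.01. None of 14 tested chromatin and transcription cofactors was called with TRPS1 siRNA (median 0.11), and *CDYL2* was the 1 of 15 called with CHD4 siRNA (median 0.12). *MED13L*, a Mediator subunit with 3 peaks, was at 1867 and 1923 CPM in the control libraries, 1617 and 1265 with TRPS1 siRNA and 1631 and 826 with CHD4 siRNA, below both controls but short of the threshold. *BCL9L*, a Wnt cofactor with 3 peaks, had overlapping groups. In 16 luminal genes that are not nearest genes of these peaks, *KRT19* and *SPDEF* were called lower with TRPS1 siRNA (median -0.46), and *KRT18*, *KRT19* and *SPDEF* with CHD4 siRNA (median -0.36). The shares of all genes called higher and lower were 2.7 and 3.17% with TRPS1 siRNA and 2.6 and 2.85% with CHD4 siRNA. No list was tested against these shares, and 14 cofactors are too few for none called to stand out.

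A direct fit of the CHD4 siRNA against the TRPS1 siRNA libraries, added after the data were seen, does not use the control libraries. Of 234 nearest genes tested, 55 (23.5%) had an unadjusted p under 0.05 against 15.4% (2023) of all 13143 genes, 20 higher and 35 lower with CHD4 siRNA. No gene passed an adjusted p under 0.05 in edgeR's quasi-likelihood test, whereas 19 nearest genes (456 of all genes) did in DESeq2. With the replicate number as a block, 85 nearest genes (3372 of all genes) passed. Same-numbered TRPS1 and CHD4 siRNA libraries deviated together (correlation 0.615), but the labels tie the numbers to no day or culture. *CCL28* differed by -3.37 (SE 0.49, adjusted p = 0.0930), *BCHE* by -1.84 (SE 0.15, adjusted p = 0.0903) and *ACSS1* by -1.17 (SE 0.16, adjusted p = 0.0903), all lower with CHD4 siRNA. *CYBRD1*, a ferric reductase gene, was at 67.6 and 112 CPM in the control libraries, 42.0 and 43.9 CPM with TRPS1 siRNA and 128 and 101 CPM with CHD4 siRNA, and it differed by 1.41 (SE 0.18). The sialyltransferase gene *ST3GAL1* was at 284 and 198 CPM in the control libraries, 106 and 93.9 CPM with TRPS1 siRNA and 280 and 214 CPM with CHD4 siRNA. For both, the TRPS1 siRNA libraries were the lowest and the CHD4 siRNA libraries overlapped the controls. The values for *XBP1* (0.00, SE 0.32), *KRT8* (0.03, SE 0.18) and *AKAP6* (0.10, SE 0.17) were within their standard errors.

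A pair of genes with 3 peaks each were lower with CHD4 siRNA and not with TRPS1 siRNA by the threshold. *DSCAM-AS1*, an oestrogen-regulated lncRNA of luminal cancers, was at 78.4 and 59.2 CPM in the control libraries, 66.0 and 62.3 CPM with TRPS1 siRNA and 24.4 and 34.2 CPM with CHD4 siRNA. *PPP1R2*, a gene for an inhibitor of protein phosphatase 1, was at 148 and 139 CPM in the control libraries, 114 and 133 CPM with TRPS1 siRNA and 61.1 and 63.5 CPM with CHD4 siRNA. The CHD4 siRNA libraries were below all others for both genes. In the direct fit they differed by -1.13 and -0.98 (adjusted p = 0.107 and adjusted p = 0.0941 by edgeR). The plot of fold changes sets both knockdowns side by side for the nearest genes called in either.

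**Figure D5:**
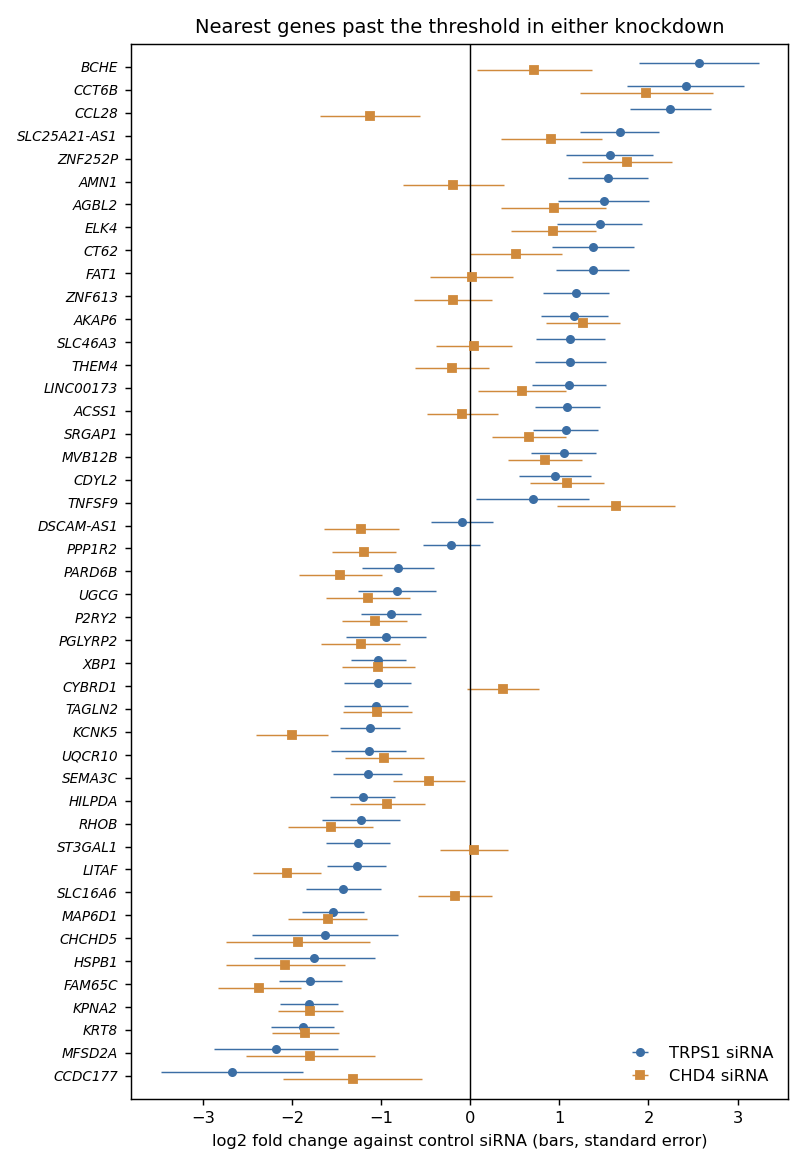
Log2 fold change against control siRNA (horizontal axis, bars are standard errors) for TRPS1 siRNA (circles) and CHD4 siRNA (squares) in 45 of the 49 nearest genes called in either knockdown, ordered by the former. Genes with 3 or fewer counts in a control library or tested in 1 comparison are not drawn. *KRT8* and *XBP1* have near-equal values, and *CCL28* lies at 2.25 and -1.13.

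No genome sequence was at hand for the peaks, so motifs in them were not analysed here. The promoters of the nearest genes, as 250 bases before a RefSeq start (GRCh38.p14), were searched on both strands for forms of the GATA motif, which were AGATAA, the form AGATAG, the form TGATAA and the form TGATAG. At least 1 was present in 16.1% of the 347 promoters found for 263 of the nearest genes, against 22.3% of all 35116 promoters. Among genes called upon silencing *TRPS1* it was in 7 of 23 promoters of the higher and 3 of 20 of the lower genes. These are promoters and not peaks, and a match is a description of the letters alone. A 30-base window each is shown for *AKAP6*, *CCT6B* and *LITAF*, which were called in both knockdowns. *SEMA3C* and *THEM4* are added as examples of a gene called lower and a gene called higher with TRPS1 siRNA. Windows run 5′ to 3′ on the strand of the gene with the motif in capitals. The set is not complete, as *CCT6B* had a further window at chr17:34961598-34961627.
AKAP6 (chr14:32329064-32329093, plus strand): caacaaagggggAGATAAtttttgtttttt
CCT6B (chr17:34961502-34961531, minus strand): tcgggcgaggcaTGATAAcgtcacttcctg
LITAF (chr16:11587575-11587604, minus strand): cggacaggcagcTGATAAgccttacctaat
SEMA3C (chr7:80922516-80922545, minus strand): ttagaaatgattTGATAGaggaaatattaa
THEM4 (chr1:151909641-151909670, minus strand): gccggaaccagaAGATAGactcaacagcga
*AKAP6*, *CCT6B* and *THEM4* were among the genes called higher upon silencing *TRPS1*, and *LITAF* and *SEMA3C* among those called lower, so windows with the motif were found on both sides.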

How the data were processed

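T47D cells gave 6 RNA-seq libraries and 4 ChIP-seq libraries, 2 of TRPS1 and 2 of input. Per the labels, the processing used BWA 0.7.12-r1039, MACS2 2.1.1, HTSeq 0.9.0, CASAVA 1.8 and the build hg38, and the study names STAR for the RNA-seq reads. The authors deposited a single peak list with positions in bp for both TRPS1 ChIP libraries. Whether replicates were pooled is not given in the sources used here. The deposited RNA-seq values are raw counts per gene, and each knockdown has its own table with the same control libraries. A gene with no counts in the 4 libraries of a table is left out of it.

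Nearest genes and sides came from the study's annotation of the peaks, whose positions equal the list for all 1844 peaks. The members, gene lists and named genes (those with 3 or more peaks, in the lists, with the 10 largest changes per direction among called genes, or with primers, and the targets) were chosen with earlier results of these data known. A few others are named as examples after their values were seen (*ACSS1*, *CYBRD1*, *ST3GAL1*, *THEM4*, *SLC40A1*, *MIR21* and *MIRLET7C*, and the genes listed to complete a count). Of the 397 nearest genes, 325 matched the tables, 324 of them by symbol and 1 by its RefSeq symbol.

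Counts were fitted per comparison of 2 against 2 libraries in edgeR 4.0.16 (R 4.3.3) by the quasi-likelihood test with TMM factors, over 2 CPM in at least 2 libraries, a prior count of 0.125 and Benjamini-Hochberg adjustment over all genes. SE was derived from the log2 fold change and the F value of its test, as their ratio after taking the root of F. The fit was tested on simulated data. Alternatives were DESeq2 1.42.0, the likelihood ratio test, other scalings and filters, a replicate block, leaving out each library and other choices of peaks. Depth was 10333138 to 14668358 counts per library. Wilson intervals (Python 3.11.15) and the floor of 3 counts cover counting error only. Figures were drawn with matplotlib 3.10.9.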

Additional observations from a re-analysis of the deposited data

Results flagged for a closer look

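*CCL28*, with 2 of these peaks upstream, was flagged because the libraries of both knockdowns moved to opposite sides of the control libraries. Its log2 fold change was 2.25 with TRPS1 siRNA and -1.13 with CHD4 siRNA. This opposite separation is itself untested. In the direct fit of CHD4 siRNA against TRPS1 siRNA libraries the difference was -3.37 (SE 0.49, unadjusted p = 0.000483, adjusted p = 0.0930 in edgeR's quasi-likelihood test), short of the adjusted threshold. Of the 230 nearest genes tested in both comparisons, 1 other gene, *SNN*, named after its values were seen, had its groups apart in opposite directions, at -0.43 with TRPS1 siRNA and 0.32 with CHD4 siRNA. The share of all genes with such opposite separation was not worked out, so whether it is rarer or more common among nearest genes is not known. In the direct fit *SNN* differed by 0.75 (SE 0.15, adjusted p = 0.119 in edgeR).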

How the results depend on the processing

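The scaling, test and filter mattered less to which nearest genes were called than the choice of libraries. With TRPS1 siRNA, 17 of 21 genes called higher and 11 of 18 called lower kept their call in all 7 fits that changed scaling, test, filter or block, and with CHD4 siRNA 3 of 8 and 12 of 18 did. In all 4 fits that left out a library, 2 and 2 did with TRPS1 siRNA and 1 and 4 with CHD4 siRNA. With each library left out in turn, TRPS1 siRNA gave 2 to 55 nearest genes called higher, 3 to 28 lower and 0 to 118 at an adjusted p under 0.05 (all genes 32 to 2457, 42 to 1847 and 0 to 6070). CHD4 siRNA gave 1 to 43, 6 to 32 and 0 to 71 (all genes 40 to 2255, 51 to 1714 and 0 to 3874). The extremes came from fits without control replicate 2, after which control replicate 1 alone stood for the controls, and from fits without a knockdown replicate. A lone library is assumed there to vary like the other group. Without control replicate 1, *GDF15* turned from a log2 fold change of -0.13 to 1.48 with TRPS1 siRNA, against -0.90 without control replicate 2. The causes of these changes were not tested.

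At an adjusted p under 0.05, TRPS1 siRNA gave 6 nearest genes by the likelihood ratio test (34 of all genes) and 6 by DESeq2 (39), and CHD4 siRNA 6 (58) and 5 (50), where DESeq2 called 5 nearest genes higher with CHD4 siRNA. With no filter on low counts, 635 of all genes were called higher and 724 lower with TRPS1 siRNA and 730 and 673 with CHD4 siRNA, and 6 nearest genes (111 of all genes) passed the adjusted threshold with CHD4 siRNA. Scaling by library size alone left 253 of all genes called lower with TRPS1 siRNA and 222 with CHD4 siRNA. Limiting the peaks to 5 to 25 kb left 287 peaks. Of 142 nearest genes tested with TRPS1 siRNA 16 (11.3%) were then called higher and 10 (7.04%) lower, and of 143 with CHD4 siRNA 6 (4.20%) and 10 (6.99%). The wider peaks, of 276 bp or more, had 125 genes tested. With TRPS1 siRNA 10 (8.0%) were called higher and 10 (8.0%) lower, and with CHD4 siRNA 3 (2.4%) and 11 (8.8%). Taking any gene with a RefSeq start within 50 kb of a peak lowered the shares. With TRPS1 siRNA 22 of 397 such genes (5.54%) were called higher and 18 (4.53%) lower. With CHD4 siRNA 9 of 395 (2.28%) and 20 (5.06%) were. The shares of all genes were 2.70 and 3.17% with TRPS1 siRNA and 2.60 and 2.85% with CHD4 siRNA.

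Groups share replicate numbers, which the labels do not tie to a day or culture, and the deviations of same-numbered libraries correlated at 0.0516 (control and TRPS1 siRNA), 0.00981 (control and CHD4 siRNA) and 0.615 (TRPS1 and CHD4 siRNA), so the numbers are not taken as pairs. With the replicate block, TRPS1 siRNA gave 32 nearest genes called higher (741 of all genes) and 3 (32) at an adjusted p under 0.05, and CHD4 siRNA gave 3 (44) at that threshold and 582 of all genes called higher.

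In the direct fit of both knockdowns, the adjusted threshold was passed by 19 nearest genes in DESeq2 (456 of all genes), 24 in the likelihood ratio test (570), 17 without the filter (424) and 85 with the replicate block (3372), where 117 nearest genes had an unadjusted p under 0.05. Leaving out a library gave 0 to 9 nearest genes (0 to 103 of all genes) at the adjusted threshold and 32 to 58 at the unadjusted one.

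A floor of 3 counts, or 0.198 to 0.284 CPM, limits the genes that are near silent in the control libraries, and 89 of the nearest genes in the tables were tested in neither comparison.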
